A study of Mus musculus with 3 samples.

Results

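Collagens are the main structural proteins of dentin, dental pulp and the basement membranes of the tooth, and each chain of the family is encoded by its own gene. The 44 genes described here were taken from a table of 19381 genes as the protein-coding genes whose symbol is Col, a number, the letter a and a number, out of 15252 protein-coding genes listed. They were measured by bulk RNA sequencing in 3 libraries of incisor mesenchyme, from the proximal incisor of mice of genotype Gli1-CreER;Arid1afl/fl;Arid1bfl/fl, called DKO (replicates 1, 2 and 3). The mice carried a tamoxifen-inducible Cre recombinase driven by Gli1, a gene of hedgehog-responsive stem cells, and floxed alleles of Arid1a and Arid1b, which encode alternative subunits of the BAF chromatin remodeling complex. Cre was activated by a tamoxifen dose of 1.5 mg for each 10 g of body weight, tissue was taken 4 days later, and the mice were 1 month old. All libraries shared this genotype and treatment, no control mice were analysed here, and no effect of the deletion was measured. Cells without Gli1-driven Cre keep both genes. Whether each library is a different animal is not stated in the labels, so SDs and p-values cover variation among these 3 preparations and may reflect technique alone.

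A collagen molecule is made of 3 chains wound into a triple helix, which needs glycine, the smallest amino acid, in every repeat unit of its chains. Fibrillar collagens pack into the fibers that mineralize in dentin, where type I collagen, made of Col1a1 and Col1a2 chains, is the main organic component. Basement membrane collagens form sheets below epithelia and around vessels. FACIT collagens (fibril-associated collagens with interrupted triple helices) sit on the fibril surface. Transmembrane collagens are anchored in the cell membrane, and beaded filament collagens (type VI) form fine filaments around cells. The remaining classes are short chain network collagens, multiplexins, the anchoring fibril collagen and 2 chains grouped here as other.

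The repeat that makes a collagen can be read in the coding exons, and it is shown because it is what all members share beyond their names. Below are coding exons of 54 bases from fibrillar genes, each in reading frame. They are the first exons of that length made of 6 whole units of 9 bases, from the GENCODE M21 annotation of GRCm38 (mm10). Capitals mark the glycine codons (GGN) that begin a unit. A further glycine codon, ggt in the last unit of Col1a1, is in lower case. The Col1a1 exon is coding exon 8 of 51 (chr11:94939904-94939957, plus strand). That of Col1a2 is coding exon 8 of 52 (chr6:4515481-4515534, plus strand). For Col3a1 it is coding exon 6 of 51 (chr1:45325360-45325413, plus strand), and for Col5a2 coding exon 6 of 54 (chr1:45434892-45434945, minus strand).
Col1a1: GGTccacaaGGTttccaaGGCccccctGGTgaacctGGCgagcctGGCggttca
Col1a2: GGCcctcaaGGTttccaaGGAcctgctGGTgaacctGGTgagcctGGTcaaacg
Col3a1: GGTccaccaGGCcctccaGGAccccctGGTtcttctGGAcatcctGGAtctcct
Col5a2: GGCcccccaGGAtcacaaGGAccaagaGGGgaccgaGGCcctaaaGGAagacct
In the basement membrane chains the repeat is broken. The exons below are the first of at most 120 bases with several regular units on both sides of 1 break. They are coding exon 28 of 52 of Col4a1 (chr8:11222999-11223103, minus strand) and coding exon 40 of 47 of Col4a2 (chr8:11441880-11441996, plus strand). Exons with fewer regular units were passed over, so earlier exons may hold breaks too. Where regular units have 2 codons between glycine codons, the break in the Col4a1 exon has 1 and that in the Col4a2 exon has 8.
Col4a1: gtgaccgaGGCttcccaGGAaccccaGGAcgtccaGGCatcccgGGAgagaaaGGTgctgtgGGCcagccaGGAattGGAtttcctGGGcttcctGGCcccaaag
Col4a2: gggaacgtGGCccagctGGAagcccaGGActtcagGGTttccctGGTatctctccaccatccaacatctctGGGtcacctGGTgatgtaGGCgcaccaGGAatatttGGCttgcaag

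Every one of the 44 genes had an unbroken run of at least 20 units in its longest annotated coding sequence, against 14 of 14848 other protein-coding genes listed whose coding sequence starts with ATG and holds whole codons. By the longest run of each gene, fibrillar genes led, with a median of 338 units. The lowest of these values, 216 and 217 units, belonged to Col24a1 and Col27a1, and the highest, 344 units, to Col3a1. The longest run of a basement membrane gene was 39 to 66 units, and these genes held 23 to 27 separate runs each, shorter ones included. Single units and pairs of units were not counted as runs. Of all coding exons in collagen genes, 469 of 2004 (23.4%) were 54 bases long, against 696 of 162275 (0.429%) in the other genes. The share was 47.0% in the fibrillar and 4.05% in the basement membrane class. Most members shared no coding stretch of 50 bases with another listed gene. That length was chosen and not taken from the reads, and matches to genes not listed were left out. Of coding stretches of 50 bases, only those of Col6a5 and Col6a6 recurred in another member's transcripts, and Col5a1 shared some with 1 other listed gene, 2810430I11Rik, which overlaps it.

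**Figure D1:**
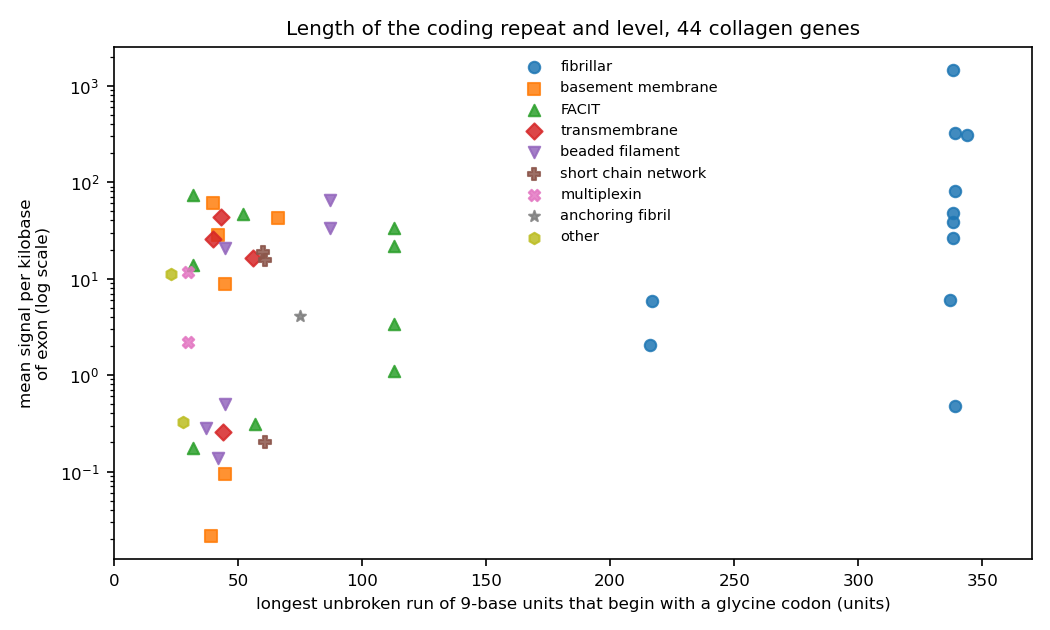
Longest unbroken run of 9-base units that begin with a glycine codon (horizontal axis, units) against the mean signal per kilobase of exon over 3 DKO libraries (vertical axis, log scale) for 44 collagen genes, with symbols for the classes. Fibrillar genes lie at 216 to 344 units and cover the range of levels from Col2a1 at 0.479 to Col1a1 at 1442 per kilobase.

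Values are gene counts scaled by the authors to a common upper quartile and are called signal here. The total signal per library was 986401, 958773 and 966163 in replicates 1, 2 and 3, and the depth in reads is unknown. Replicate 1 stood apart in interferon-stimulated genes, whose 8 listed members summed to 1062, 197 and 201 in replicates 1, 2 and 3. It also held more signal of a ribosomal RNA gene, at 7.27% against 4.98% in replicate 2 and 4.66% in replicate 3, and of mitochondrial genes, at 5.11% against 4.14% and 4.16%. Of the dental mesenchyme markers Prrx1, Pdgfra, Msx1, Msx2, Dlx3 and Dlx5, 6 of 6 had a mean of at least 10, against 66.5% of protein-coding genes listed. That count cannot check the tissue label, because markers of other cell types passed as well. Dental epithelium markers (6 of 6), endothelial (6 of 6), mural (5 of 5) and macrophage markers (5 of 5) also reached that mean. Markers of skeletal muscle (0 of 3) did not, and of cartilage 3 of 5 listed did (Sox9, Cnmd and Acan, with Comp at 1.11 ± 0.468; SD, n = 3). The floxed Arid1a and Arid1b stood at 133 ± 3.04 and 50.7 ± 0.156, and gene-level values do not check their deletion.

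Collagen genes took 2.11%, 1.87% and 3.15% of all signal in replicates 1, 2 and 3 (2.38% ± 0.679, SD, n = 3; 2.51% without replicate 1). The share was highest in replicate 3, at 1.68 times that of replicate 2. Col1a1, Col1a2 and Col3a1 together made up 71.2%, 66.4% and 74.8% of the collagen signal. With these left out the share was 0.608%, 0.630% and 0.795%. In bulk tissue, fewer cells of a type and less RNA per cell cannot be told apart. Of the 44 genes, 33 had a mean of at least 10, against 66.5% of all protein-coding genes listed. The median level of these 33 genes was 25.7 per kilobase of exon, against 8.57 for all 10057 protein-coding genes with that mean and an annotated exon length.

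Fibrillar genes dominated the family with and without division by length, and levels here are per kilobase of exon. Their summed level was 2151, 1533 and 3161 per kilobase in replicates 1, 2 and 3 (2282 ± 822, SD, n = 3; 2347 without replicate 1), which was 79.2%, 72.7% and 82.4% of the collagen total per kilobase. The FACIT class followed at 193 ± 20.8, then basement membrane at 139.8 ± 25.6, beaded filament at 121 ± 10.9 and transmembrane at 86.1 ± 9.84. Short chain network genes summed to 34.9 ± 7.18, multiplexins to 13.9 ± 1.79, the other chains to 11.6 ± 2.17 and the anchoring fibril gene to 4.08 ± 0.717. The order of the classes below the fibrillar one depended on the length used: per kilobase of coding length, transmembrane genes (347) stood above FACIT (305), beaded filament (209.6) and basement membrane genes (196). The fibrillar class was lowest in replicate 2, while transmembrane genes, at 97.4, 81.7 and 79.2, were highest in replicate 1.

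Within libraries the fibrillar sum exceeded the basement membrane sum by 3.98 ± 0.40 on the log2 scale, the FACIT sum by 3.51 ± 0.45, the transmembrane sum by 4.67 ± 0.57 and the beaded filament sum by 4.18 ± 0.40 (SD, n = 3). All 3 libraries gave the same sign each time. By exact permutation of signs, two-sided, p was 0.25 for all 4, before and after adjustment over them, the smallest value that a set of 3 libraries can give. Without replicate 1 they were 3.88, 3.44, 4.77 and 4.18. With Col1a1, Col1a2 and Col3a1 left out, the differences were 0.55, 0.08, 1.24 and 0.75 in the same order, and that against FACIT was below 0 in replicate 2 (p = 0.75, exact permutation). Between the median members of the classes they were 0.75, 1.26, 0.55 and 1.53, and those against basement membrane and transmembrane were below 0 in replicate 2 (p = 0.5 each, exact permutation).

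**Figure D2:**
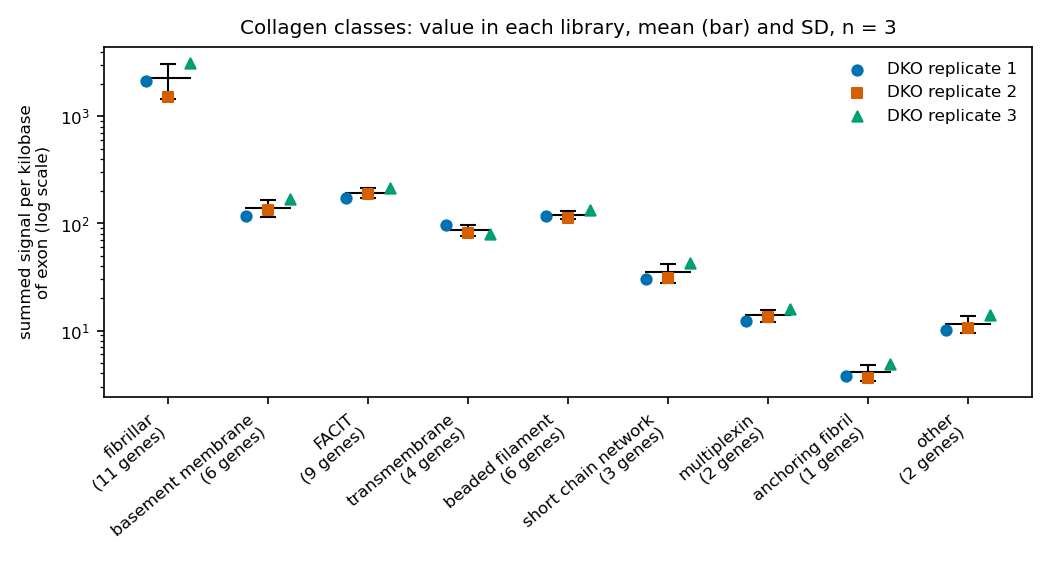
Summed signal per kilobase of exon (log scale) of each collagen class in the 3 DKO libraries (points), with the mean (bar) and SD (whiskers, n = 3). The fibrillar class lies at 1533 to 3161, above every other class in each library, and the FACIT class next at 174 to 215.

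Type I collagen led the family. Col1a1, its more abundant chain, had a signal of 9949.9, 4719 and 13715 in replicates 1, 2 and 3. Replicate 2 was lowest, and the highest library was 2.91 times the lowest. Per kilobase of exon Col1a1 averaged 1442 ± 688, rank 12 of 15074 protein-coding genes with an exon length, and held 49.95% of the mean collagen total. Without division by length its share of the collagen signal was 47.7%, 26.3% and 45.0% in replicates 1, 2 and 3. Col1a2, the second chain of type I, stood at 2809, 3889.7 and 5371, with replicate 1 lowest and replicate 3 highest. Its level per kilobase was 324 ± 104. Col3a1, the chain of type III collagen in soft connective tissue such as pulp, was at 2100.4, 3325 and 3682 (309 ± 84.5 per kilobase). It was also lowest in replicate 1.

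Chains of type V collagen, which start fibrils and limit their diameter, kept 1 order of libraries. Col5a2 was at 580.03, 727 and 1010.1 in replicates 1, 2 and 3. Col5a1 was at 244, 307 and 424, also lowest in replicate 1. Col5a3, a rarer type V chain, had a mean of 40.6 ± 9.54 and that order too. The type XI chains Col11a1 and Col11a2 are known best from cartilage fibrils. Col11a1 was at 356, 229 and 429, and Col11a2 at 422, 141 and 412. Both were lowest in replicate 2. Col27a1 was at 108, 55.7 and 67.3 and Col24a1 at 18.99, 12.1 and 15.5, also lowest there. Col2a1, the chain of cartilage type II collagen, had only 3.23, 4.97 and 5.08.

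Of the 6 basement membrane chains, 4 were at a mean of at least 10. Col4a1 and Col4a2, the pair found in nearly all basement membranes, stood at 380, 400 and 566 and at 236, 248 and 360.2 in replicates 1, 2 and 3. Replicate 3 was highest for both. Col4a5 was at 159, 222 and 192 and Col4a6 at 60.6, 76.6 and 71.1, with replicate 2 highest for both. Col4a3 and Col4a4, best known from the kidney filter, were at 0.215 ± 0.0497 and 0.994 ± 0.318. Exons of C430014B12Rik overlap 5.65% of the exon length of Col4a3, and the strand setting of the counting is unknown. The endothelial markers, 6 of 6 highest in replicate 3 (against 34.9% of protein-coding genes), summed to 323, 339 and 449.96. Their part in the values of Col4a1 and Col4a2 was not tested.

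Among FACIT genes, Col12a1, which coats type I fibrils, was at 879, 1134 and 1315 in replicates 1, 2 and 3 (72.9 ± 14.4 per kilobase). Col16a1 was at 285, 309.9 and 349. Col14a1, another fibril-surface chain, was at 52.6, 105 and 132. All of them were lowest in replicate 1. The type IX chains, partners of type II collagen in cartilage, passed a mean of 10, while Col2a1 averaged 4.43 ± 1.04. Col9a2 was at 108, 95.1 and 106, Col9a3 at 100.001, 73.4 and 76.6, and Col9a1 at 16.9 ± 0.603. Exons of Tcfl5 on the other strand overlap 6.07% of the exon length of Col9a3. Col22a1, a chain of tissue junctions, was at 14.7, 12.1 and 3.35 and lay just above the mean of 10. Col19a1 (2.15 ± 0.123) and Col20a1 (0.792 to 0.990) had the smallest values of the class.

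The type VI chains Col6a1, Col6a2 and Col6a3 varied little. They were at 282, 267 and 312, at 276, 251 and 309, and at 235, 236 and 278 in replicates 1, 2 and 3. All were highest in replicate 3. The other type VI chains lie next to each other on chromosome 9 and stayed below a mean of 5. Col6a5 was at 0.408, 0.226 and 7.33, higher in replicate 3 by a factor of 32.4 over the lowest library. Because it shares coding stretches of 50 bases with Col6a6 (0.786, 1.50 and 1.48), its reads may be uncertain. Col6a4 was at 4.29 ± 1.04.

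Of the 4 transmembrane genes, 3 had a mean of at least 10. Col23a1 was at 309, 209.9 and 233 in replicates 1, 2 and 3, and Col25a1, known from neurons and motor nerve growth, at 350.01, 342 and 307. Both were highest in replicate 1. Col17a1, a hemidesmosome protein of basal epithelial cells, was at 98.2, 112 and 87.5. It was highest in replicate 2, as were all 6 epithelial markers (against 34.0% of protein-coding genes), with summed signals of 543, 764 and 545. The keratins Krt5 (179.97, 253 and 162) and Krt14 (122.8, 190.9 and 154) differed in which library was lowest, replicate 3 for Krt5 and replicate 1 for Krt14. The part of epithelial cells in Col17a1 was not tested. Col13a1, a chain of nerve-muscle synapses, had 1.17 ± 0.420.

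In the short chain network class, Col8a1 and Col8a2, which form hexagonal lattices in the cornea and vessel walls, stood at 97.8, 111 and 161 and at 79.6, 75.02 and 101. Col10a1, the marker of hypertrophic cartilage, had 0.495, 0.797 and 0.629. The multiplexins Col18a1 and Col15a1, basement membrane zone collagens that release endostatin and a related fragment, were at 75.8, 79.97 and 90.1 and at 9.87, 13.0 and 19.1. Col7a1, which builds the anchoring fibrils below stratified epithelia, was at 38.6, 36.9 and 50.4. Col26a1 was at 81.1, 84.6 and 110.4. Col28a1, known from nerve glia, was at 0.903, 1.07 and 2.77. Each of these chains except Col10a1 was highest in replicate 3, and the values of Col28a1 were low.

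**Figure D3:**
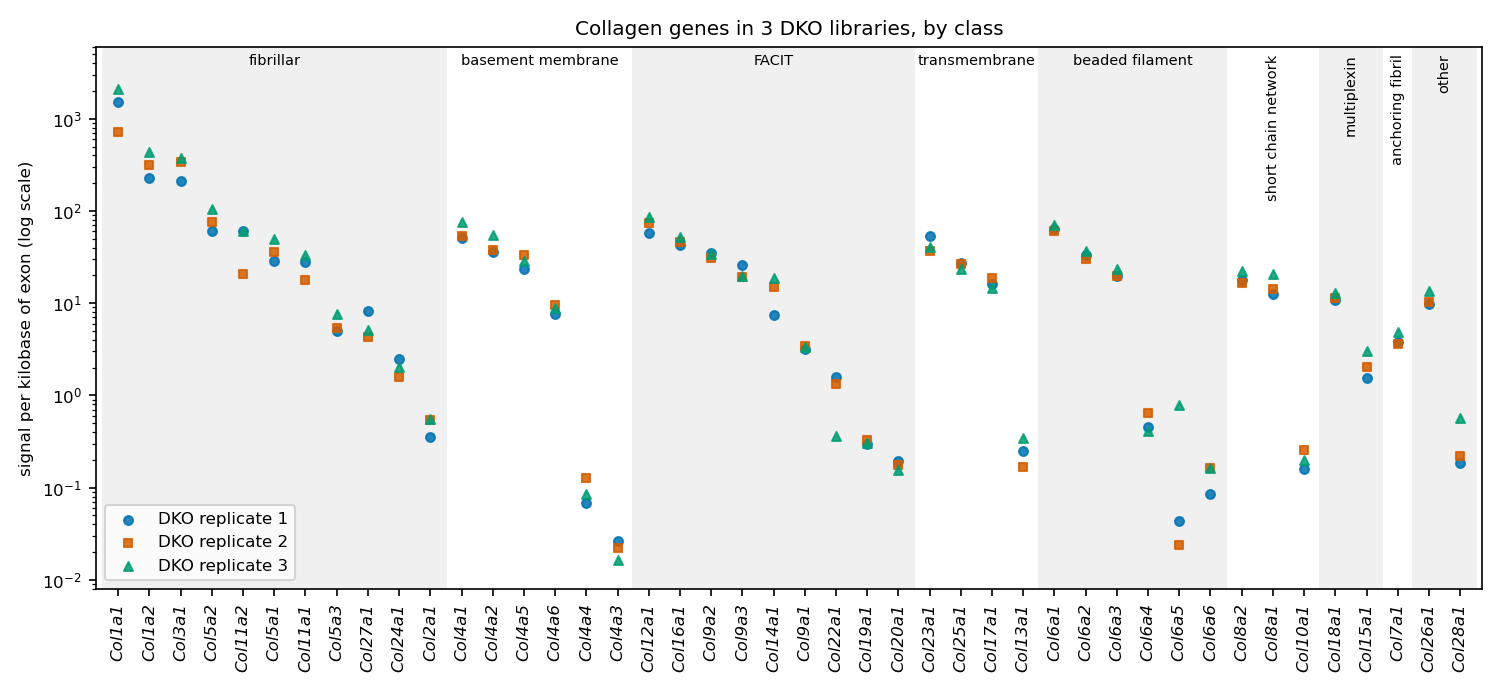
Signal per kilobase of exon (log scale) of all 44 collagen genes in the 3 DKO libraries, grouped by class and ordered by mean within a class. Col1a1 leads at a mean of 1442 per kilobase and Col4a3 is lowest at 0.0216.

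Collagen genes varied more between the libraries than most genes. The median SD of log2(value + 1) was 0.29 over the 33 genes at a mean of at least 10, against 0.10 over 10149 protein-coding genes at that mean. An SD above 0.5 was found for 4 of 33 (12.1%), against 1.73% of those protein-coding genes. They were Col22a1 (1.00), Col11a2 (0.90), Col1a1 (0.79) and Col14a1 (0.69). Without replicate 2 the count was 7 of 32, of which 1 was among the 4 (Col14a1), against 2.35% of protein-coding genes. Without replicate 1 it was 3 of 32, against 0.791% of protein-coding genes, and without replicate 3 it was 4 of 33, against 2.40%. Col9a1 was the steadiest, with an SD of 0.05.

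The members leaned toward replicate 3. Of 33 genes, 21 (63.6%) were highest in replicate 3, against 34.9% of protein-coding genes, 8 (24.2%) in replicate 1, against 31.0%, and 4 (12.1%) in replicate 2, against 34.0%. The lowest value lay in replicate 1 for 18 (54.5%), against 38.4%, in replicate 2 for 12 (36.4%), against 28.0%, and in replicate 3 for 3 (9.09%), against 33.6%. With equal totals after leaving out ribosomal RNA and mitochondrial genes, 17 were lowest in replicate 1. The order of replicate 1 below 2 below 3 was followed by 15 genes (45.5%), against 20.8% of protein-coding genes. The median deviation of the 33 genes from their own means was -0.10, -0.10 and 0.25 on the log2 scale in replicates 1, 2 and 3, against -0.01, 0.01 and 0.00 over protein-coding genes. Rescaling libraries to equal totals moved them by up to 0.024 on that scale and changed the order of 1 gene, Col25a1. Members are not independent of each other, so these shares describe the 3 libraries.

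Fibrillar genes at a mean of at least 10 differed in which library was lowest. Col1a2, Col3a1, Col5a1, Col5a2 and Col5a3 were lowest in replicate 1 (5 of 10, against 38.4% of protein-coding genes). Col1a1, Col11a1, Col11a2, Col24a1 and Col27a1 were lowest in replicate 2 (5 of 10, against 28.0%). Among the latter, Col11a2, Col24a1 and Col27a1 were highest in replicate 1, and Col1a1 and Col11a1 in replicate 3. The odontoblast gene Dspp, which encodes the main non-collagen proteins of dentin, was at 4959, 1072 and 3489 in replicates 1, 2 and 3, Bglap, with near copies beside it, at 363, 104 and 394, and Phex at 377, 79.7 and 339. Summed odontoblast markers were 6143, 1656 and 4731. Of the 6 at a mean of at least 10, 4 were lowest in replicate 2, against 28.0% of protein-coding genes. Sp7 (187, 182 and 176) and Runx2 (129.6, 169 and 166) were not lowest there. The macrophage markers summed to 676, 936 and 966, with 5 of 5 lowest in replicate 1, against 38.4% of protein-coding genes. The part of these cell types in the collagen values was not tested.

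**Figure D4:**
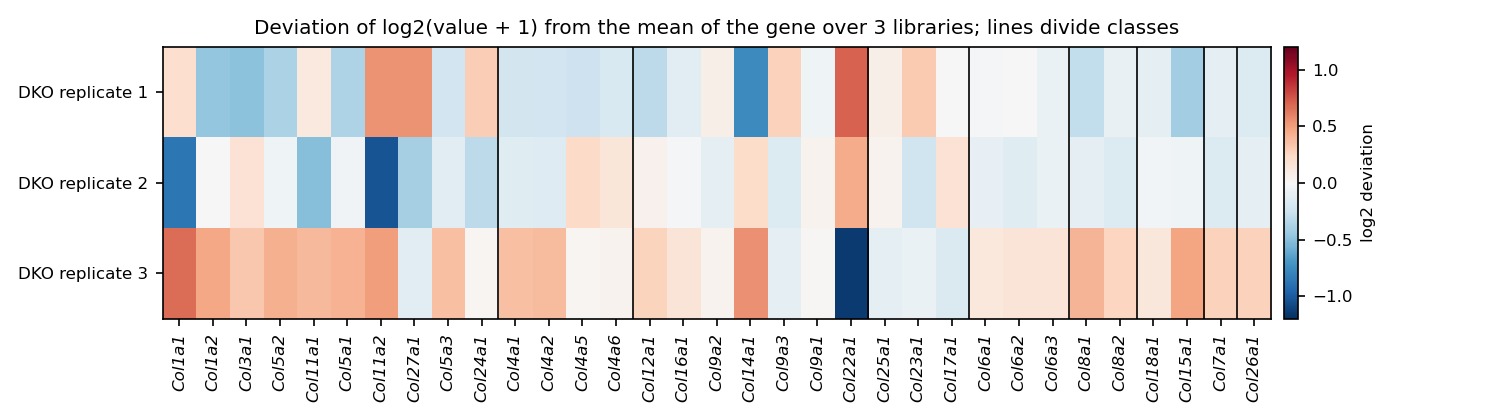
Deviation of log2(value + 1) from the mean of each gene in the 3 DKO libraries (rows) for the 33 collagen genes at a mean of at least 10 (columns), by class and by falling mean within a class. Col1a1 and Col11a2 are low in replicate 2, Col22a1 is low in replicate 3, and most genes are highest in replicate 3.

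Chains that join in 1 molecule differed widely in how constant their ratio was. The difference between Col5a1 and Col5a2 was -1.07, -1.06 and -1.07 on the log2 scale per kilobase of exon in replicates 1, 2 and 3. Its SD was 0.0049, while each gene alone had an SD of 0.40 on the log2 scale. Col4a1 exceeded Col4a2 by 0.51, 0.51 and 0.48 (SD 0.021), Col6a1 exceeded Col6a2 by 0.95, 1.01 and 0.94 (SD 0.039) and Col4a5 exceeded Col4a6 by 1.62, 1.77 and 1.67 (SD 0.076). The chains of each of these pairs thus moved together between libraries. This was not particular to chains of 1 molecule. Deviations from the gene mean were -0.22, -0.14 and 0.36 for Col4a1 and -0.23, -0.13 and 0.36 for Col5a3 in replicates 1, 2 and 3. Whether sharing a molecule matters for such closeness was not tested. The size of Col6a1 minus Col6a2 depended on the length used, at 0.055 per kilobase of coding length and -0.011 per kilobase of the transcript with the longest coding sequence.

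In contrast, Col1a1 exceeded Col1a2 by 2.75, 1.20 and 2.27, a range of 1.55 on the log2 scale. The ratio of Col1a1 to Col1a2 was 6.71, 2.30 and 4.83 per kilobase of exon and 3.34, 1.15 and 2.41 per kilobase of coding length, lowest in replicate 2 on both scales. The annotated exons of Col1a2 cover 12426 bases, against 4116 coding bases, so the length used sets the size of that ratio and not its order. Col11a1 minus Col11a2 was -1.14, -0.19 and -0.83 per kilobase of exon, but per kilobase of coding length the mean difference was 0.11, so which type XI chain was higher was not settled. Col8a1 minus Col8a2 was -0.29 ± 0.19 per kilobase of exon and 0.42 per kilobase of coding length.

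Col3a1 minus Col1a1 was -2.82, -1.09 and -2.48 in replicates 1, 2 and 3, closest in replicate 2. Among pairs of different molecules, Col12a1 exceeded Col14a1 by 2.47 ± 0.40, Col3a1 exceeded Col5a2 by 1.94 ± 0.19, and Col15a1 was below Col18a1, with a difference of -2.37 ± 0.32. Within type IX, Col9a2 exceeded Col9a3 by 0.63 ± 0.18. In all 13 pairs compared, the sign was shared by 3 of 3 libraries, with p = 0.25 in the exact permutation of signs, also after adjustment over the pairs. Both chains had a mean of at least 10 in 12 pairs, all except Col4a3 and Col4a4, whose difference was -0.61 ± 0.25.

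**Figure D5:**
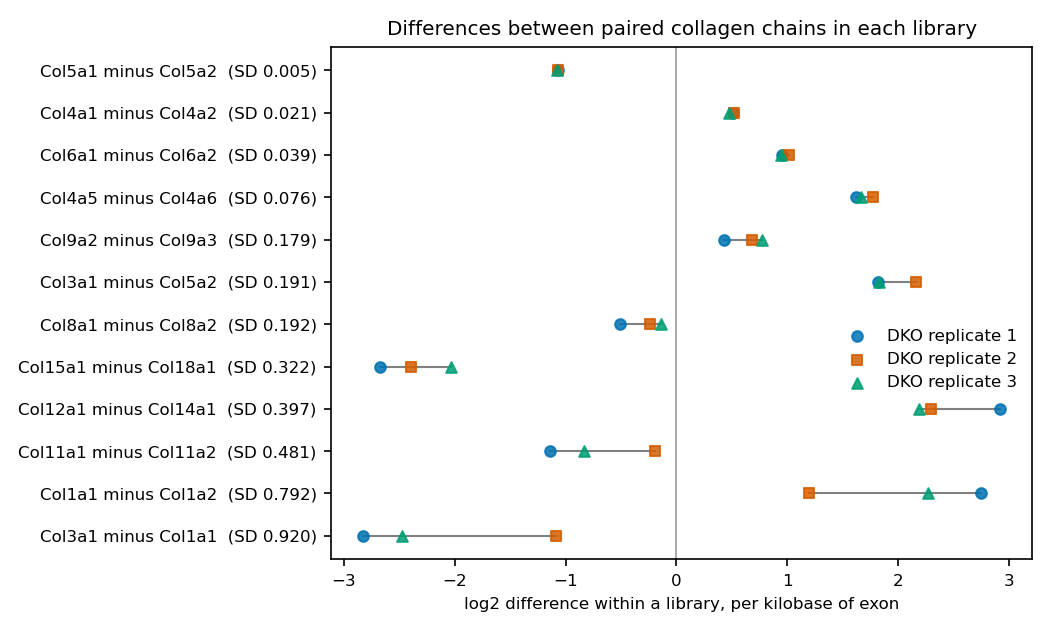
Log2 difference within a library between the chains of 12 pairs, per kilobase of exon (horizontal axis), in the 3 DKO libraries, ordered by SD from top to bottom. The libraries coincide for Col5a1 minus Col5a2 (SD 0.0049) and spread most for Col1a1 minus Col1a2 and Col3a1 minus Col1a1.

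Several of these pairs are neighbours in the genome. Col4a1 (chromosome 8, 11198423 to 11312826, minus strand) and Col4a2 (11312805 to 11449287, plus strand) start head to head and share 22 annotated bases. The starts of Col4a3 and Col4a4 on chromosome 1 lie 72 bases apart and those of Col4a5 and Col4a6 on chromosome X 1309 bases apart. Col3a1 and Col5a2 end toward each other on chromosome 1 with 24.6 kb between them. Col5a1 and Col5a2, the pair with the steadiest difference, lie on different chromosomes, 2 and 1. Col1a1 (chromosome 11, 94936224 to 94953042) and Col1a2 (chromosome 6, 4504814 to 4541544) also lie apart. A link between position and the steadiness of a pair was not tested.

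Promoters of a few fibrillar genes with different orders of libraries are given for comparison, as the 120 bases before the RefSeq start in GRCm38.p6. Col3a1 (chr1:45311418-45311537, plus strand) and Col5a1 (chr2:27886305-27886424, plus strand) were lowest in replicate 1, and Col11a1 (chr3:114030420-114030539, plus strand) and Col11a2 (chr17:34039018-34039137, plus strand) in replicate 2. Capitals mark every match, on either strand, to the CCAAT box (letters CCAAT), the TATA box (searched as the letters TATAAA) and the GC box (searched as the letters GGGCGG). No matches overlap in these windows.
Col3a1: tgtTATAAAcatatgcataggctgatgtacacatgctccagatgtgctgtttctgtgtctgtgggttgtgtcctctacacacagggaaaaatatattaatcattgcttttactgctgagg
Col5a1: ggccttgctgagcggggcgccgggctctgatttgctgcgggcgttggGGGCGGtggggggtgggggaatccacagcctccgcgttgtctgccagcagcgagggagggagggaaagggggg
Col11a1: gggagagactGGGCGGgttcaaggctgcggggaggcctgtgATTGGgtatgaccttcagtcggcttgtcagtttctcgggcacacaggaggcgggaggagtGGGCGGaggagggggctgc
Col11a2: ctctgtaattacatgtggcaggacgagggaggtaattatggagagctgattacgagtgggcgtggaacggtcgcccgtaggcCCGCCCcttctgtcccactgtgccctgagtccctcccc
RefSeq windows were found for 35 of the 44 genes (38 windows). In the 250 bases before the start, GGGCGG was found in 22 of 38 windows (57.9%), against 32.7% of all 32851 promoter windows of that length, CCAAT in 13 (34.2%), against 33.8%, and TATAAA in 5 (13.2%), against 12.4%. These are matches of letters and not evidence of binding.

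Genes that modify, secrete and cross-link collagens were mostly highest in replicate 3. Of 28 such genes, 24 had a mean of at least 10, and 23 of the 24 were highest in replicate 3, against 34.9% of protein-coding genes. Serpinh1, the chaperone of the triple helix, was at 1206, 1565 and 1688 in replicates 1, 2 and 3, and P4hb, a subunit of prolyl 4-hydroxylase, at 713, 796 and 798. P4hb was thus nearly tied between replicates 2 and 3, and the count for this list was not repeated with libraries rescaled to equal totals. An SD of log2 above 0.5 was found for 3 of the 24, against 1.73% of protein-coding genes, and they are cross-linking enzymes. Lox was at 215, 101 and 256 and Loxl4 at 27.7, 7.69 and 27.95, both lowest in replicate 2, whereas Loxl2 was at 34.1, 64.0 and 74.3, lowest in replicate 1. Of 9 listed collagen receptors, 8 had a mean of at least 10, and 7 of the 8 were highest in replicate 3, against the same 34.9%. Itgb1, the shared chain of the collagen-binding integrins, was at 887, 1051 and 1082, and Mrc2, an uptake receptor for collagen, at 504, 436 and 537.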

How the data were processed

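RNA was isolated from proximal incisors with an RNeasy Micro kit, per the labels' protocols, and reads were aligned with TopHat2 2.0.8 to mm10, per the submitters' processing notes. No source used here gives the counter, annotation, strand setting or filters. The deposited signal is a gene-level normalized count whose 75th percentile is 44.7 in every column, and it was not divided by length by the authors. Of values up to 20 times the smallest, 82.4% to 82.6% came within 0.1 of whole multiples, so whole reads were not recovered and no count model was used.

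Columns were matched to libraries by the library number in the labels. Exon length is the union of annotated GENCODE M21 exons, and all 44 genes matched that annotation by symbol and start. Logarithms are log2(value + 1) for single genes. Spread was called at an SD above 0.5 and a mean of at least 10. Class and chain differences were tested within libraries by exact two-sided permutation of signs and Benjamini-Hochberg adjustment. The spread call and the search for runs were tested on simulated data, and the sign permutation and the adjustment on fixed inputs. Values in every library are given for the 3 highest members of a class, members with a wide spread and the chains of pairs at a mean of at least 10, and others were added after their values were seen. Of the pathway and cell type lists, genes beyond the highest pair were likewise added. The members, classes and lists were chosen with earlier results of these data known. A few marker genes are not reported here. Alternatives were other lengths, scalings, pseudocounts, filters and leaving out each library. Python 3.11.15, pandas 2.3.3 and NumPy 2.4.6 were used.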

Additional observations from a re-analysis of the deposited data

How the results depend on the processing

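The 4 mean class differences stayed above 0 under each alternative run, down to 0.08 for fibrillar minus FACIT without Col1a1, Col1a2 and Col3a1, a choice added after seeing the data, and leaving out each library kept the direction of the 13 pair differences. No comparison between groups was possible because the labels give only 1 group. Col11a1 minus Col11a2 reversed to 0.17 without division by length and to 0.11 per kilobase of coding length. Col8a1 minus Col8a2 reversed to 0.51 without division by length, 0.42 per kilobase of coding length and 0.27 per kilobase of the transcript with the longest coding sequence, a length added after seeing the data. Col6a1 minus Col6a2 reversed to -0.011 with that transcript length. These reversals follow from the lengths used. The collagen share of 2.38% was 0.678% without Col1a1, Col1a2 and Col3a1. Without division by length the class sums were 18419 (fibrillar), 991 (basement membrane), 1737 (FACIT), 684 (transmembrane), 823 (beaded filament), 209 (short chain network), 96.0 (multiplexin), 42.0 (anchoring fibril) and 93.6 (other). Per kilobase of coding length they were 4221 (fibrillar), 196 (basement membrane), 305 (FACIT), 347 (transmembrane), 209.6 (beaded filament), 96.2 (short chain network), 18.8 (multiplexin) and 70.2 (other). Transmembrane genes then stood above FACIT genes. Per kilobase of the added transcript length they were 3173 (fibrillar), 243 (FACIT), 189 (transmembrane), 166 (beaded filament), 152 (basement membrane), 44.0006 (short chain network), 17.4 (multiplexin) and 34.2 (other), with basement membrane genes below transmembrane and beaded filament genes. At a mean of at least 100, where fewer genes were counted, 19 members passed in place of 33, and 2 had a wide spread, against 0.913% of protein-coding genes at that mean. Of the 19, 4 were highest in replicate 1 (against 23.4%) and 1 in replicate 2 (against 40.2%), and 11 were lowest in replicate 1 (against 46.97%), 7 in replicate 2 (against 19.8%) and 1 in replicate 3 (against 33.2%). With no filter on low values, 9 of 44 were highest in replicate 2 (against 33.6%) and 6 lowest in replicate 3 (against 33.96%). Wide-spread members numbered 3 to 7 with each library left out, against 0.791% to 2.40% of protein-coding genes. Values near 1 are limited by an unknown depth.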

Other observations

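Outside the family, 14 protein-coding genes listed also held a run of at least 20 collagen-type units. A mean of at least 10 was reached by 8 of the 14, against 66.5% of all protein-coding genes listed. The scavenger receptors Colec12 and Scara3 were at 524, 485 and 439 and at 332, 239.8 and 314 in DKO replicates 1, 2 and 3. C1qb, a complement chain made by macrophages, was at 82.2, 99.8 and 107, lowest in replicate 1 like the macrophage markers. Marco, a macrophage receptor with the longest run of the 14 at 81 units, had 0.0874, 1.02 and 0.396. Colq, the collagen tail of acetylcholinesterase, held a run of 59 units and had 2.71 ± 0.686 (SD, n = 3). Which of the 14 to name was decided with the values in view, and none was tested.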
